A study of Mus musculus with 20 samples.

Results

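The miR-322, miR-351 and miR-503 cluster is a group of microRNA (miRNA) hairpins that lie close together on the mouse X chromosome. Described here are 4 of its mature products, miR-322-5p, miR-322-3p, miR-351-5p and miR-503-5p, out of 1545 entries in a table of small RNA reads from mouse hearts. They were chosen by name from the locus, on values already known from these libraries, among them the level of miR-351-5p in infarcted against sham hearts. Their differences between groups are therefore given as a description, with no test. Differences between groups are tested only for other miRNAs of the locus and for miRNAs elsewhere that share a seed with a member. Correlations between miRNAs of the locus are tested within 1 set of libraries, members included.

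The 20 libraries come from total RNA of hearts of C57BL/6J mice, and all 4 groups share that strain. Sham hearts (n = 5) had neither treatment, MI hearts (n = 4) had a myocardial infarction, CIH hearts (n = 4) came from mice under chronic intermittent hypoxia, and MI+CIH hearts (n = 7) had both. The group names are abbreviations in the labels, read here with the series title, which is about remodelling after infarction and disordered breathing in sleep. Age, sex, the time after infarction and the hypoxia schedule are not given in the sources used here, nor is it stated whether each library is a separate animal, so the p-values measure the spread between these libraries.

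A hairpin precursor is cut by Drosha and Dicer into a duplex whose strands are its 5p and 3p arms, and an arm loaded into Argonaute represses messenger RNAs that pair with its seed, bases 2 to 8. miR-322 and miR-503 belong by seed to the extended miR-15/16 family, known for slowing the cell cycle through cyclins and their kinases. In muscle the pair is known for promoting the exit from the cell cycle and differentiation, and miR-351 has the seed of the miR-125 family. miRNAs cut from one primary transcript are made in equal numbers at first, and later steps can set their final levels apart.

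On the minus strand of chromosome X (GRCm38, GENCODE M21), Mir322 (chrX:53054255-53054349) comes first, then Mir503 (chrX:53053984-53054054) and Mir351 (chrX:53053255-53053353), within 1095 bases. Mir542 (chrX:53049403-53049487), Mir450-2 (chrX:53048299-53048367), Mir450-1 (chrX:53048154-53048244) and Mir450b (chrX:53047997-53048078) follow on the same strand, so that the whole run spans 6353 bases between the protein-coding genes Plac1 and Hprt. The RefSeq long non-coding RNA C430049B03Rik (chrX:53053112-53057190) covers Mir322, Mir503 and Mir351, so these are hairpins inside a non-coding gene. The GENCODE model of that gene begins upstream of Mir322 and does not reach them.

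The mature sequences of the members are shown first because their seeds divide them. They were read from RefSeq on GRCm38.p6 for 4 of 4 members, 5′ to 3′, with the seed in capitals. miR-322-5p and miR-503-5p share bases 2 to 7 and part at base 8, miR-322-3p has a seed of its own, and miR-351-5p has that of miR-125.
miR-322-5p: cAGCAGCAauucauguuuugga
miR-503-5p: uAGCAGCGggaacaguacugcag
miR-322-3p: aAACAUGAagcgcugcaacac
miR-351-5p: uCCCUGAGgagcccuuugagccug

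Of the 9 other arms of the locus in the table, the 3 that passed the filter on low values are shown because they carry the tests. miR-450a-5p is made by both Mir450-1 and Mir450-2, whose reads cannot be told apart.
miR-503-3p: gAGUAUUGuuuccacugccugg
miR-542-3p: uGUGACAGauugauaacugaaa
miR-450a-5p: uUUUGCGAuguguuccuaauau

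The hairpins of miR-322 and miR-503 are shown because both of their arms were counted. Here the capitals mark the 5p arm and then the 3p arm.
Mir322: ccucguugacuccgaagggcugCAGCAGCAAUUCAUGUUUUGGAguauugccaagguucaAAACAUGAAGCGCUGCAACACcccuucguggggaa
Mir503: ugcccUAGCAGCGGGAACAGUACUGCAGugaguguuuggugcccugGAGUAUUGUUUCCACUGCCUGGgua

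Seed relatives are shown because their tests stand beside the members below. Their hairpins are on chromosomes 14 (miR-15a, miR-16), 3 (miR-15b, miR-16), 11 (miR-195a, miR-497a), 17 (miR-125a), 9 and 16 (miR-125b). The first 5 share bases 2 to 8 with miR-322-5p and bases 2 to 7 with miR-503-5p, and the last pair shares bases 2 to 8 with miR-351-5p.
miR-15a-5p: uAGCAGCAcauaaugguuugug
miR-15b-5p: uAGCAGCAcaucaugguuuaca
miR-16-5p: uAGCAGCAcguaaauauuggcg
miR-195a-5p: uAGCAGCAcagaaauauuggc
miR-497a-5p: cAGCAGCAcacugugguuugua
miR-125a-5p: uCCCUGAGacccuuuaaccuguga
miR-125b-5p: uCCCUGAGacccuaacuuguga

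Levels are RPM, each library's reads of a miRNA per 1000000 of its reads. Totals ran from 1991323 to 18138415 reads, so 1 read was worth 0.0551 to 0.502 RPM. Clustering of the libraries, with the 4 members left out and the number of sets fixed at 3, gave sets that the labels do not name. The largest, set A (11 libraries), takes in every sham and CIH heart together with MI 2 and MI+CIH 1. Set B (6 libraries) consists of MI 1 and MI 3 with MI+CIH 2, 3, 4 and 5, and set C (3 libraries) of MI 4 with MI+CIH 6 and 7. The 73 pairs of libraries inside a set correlated across miRNAs at 0.909 to 0.994 (Pearson's r), and the 117 pairs from different sets at 0.712 to 0.933. Sham and CIH libraries are in set A only, so infarction and library set mostly cannot be told apart, and values are given by set as well as by group. MI 2 and MI+CIH 1 lie with the uninfarcted libraries, so values are also given without them, and without sham 1 and MI 2 together. The heart muscle miRNA miR-1a-3p was present at 69203 to 314224 RPM in all 20 libraries. In whole tissue, fewer cells of a type and less of a miRNA per cell cannot be told apart.

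All 4 members had reads in every library. By mean over the 20 libraries, miR-322-3p averaged 112 RPM (place 117 of 1545), miR-322-5p 42.1 RPM (place 176), miR-351-5p 25.3 RPM (place 207) and miR-503-5p 8.86 RPM (place 266). All 4 passed the filter of at least 5 RPM in at least 4 libraries, which left 360 entries for the tests. miR-322-3p and miR-322-5p reached 5 RPM in 20 of 20 libraries, miR-351-5p in 17 and miR-503-5p in 15. These are shares of sequenced reads of molecules of nearly equal length (21 to 24 bases), not counts of molecules.

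miR-351-5p, the arm with the miR-125 seed, split the libraries into a low and a high block. Sham hearts had 7.12, 5.26, 5.38, 3.86 and 4.39 RPM in replicates 1 to 5, and CIH hearts had 7.41, 5.09, 4.16 and 5.74 RPM. MI hearts 1, 3 and 4 had 60.05, 51.4 and 47.7 RPM, whereas MI 2 had 6.28 RPM. In MI+CIH hearts the lowest value was 7.77 RPM (MI+CIH 1), the median 43.8 RPM and the highest 59.3 RPM. The low block was set A, all 11 libraries between 3.86 and 7.77 RPM, and the high block was sets B and C, all 9 between 25.6 and 60.05 RPM. The low values rest on few reads, the fewest being 22 in sham 4 (95% Wilson interval 2.55 to 5.84 RPM, for counting error only), yet the blocks lie well apart. The share of all tested entries that part these sets in the same way was not counted. The blocks are therefore not read as particular to miR-351-5p.

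By group, miR-351-5p averaged 5.20 ± 1.24 RPM in sham (SD, n = 5), 5.60 ± 1.37 in CIH (n = 4), 41.4 ± 23.95 in MI (n = 4) and 41.7 ± 19.4 in MI+CIH (n = 7). Sham and CIH, and MI and MI+CIH, differed by less than their SD. Both infarcted groups were less spread without their set A library: without MI 2 the MI mean was 53.1 ± 6.33 RPM (n = 3), and without MI+CIH 1 the MI+CIH mean was 47.3 ± 13.5 RPM (n = 6). Without sham 1 the sham mean was 4.72 ± 0.724 RPM (n = 4). MI+CIH did not overlap sham or CIH in miR-351-5p. The same held for 55 of 360 tested entries (15.3%) against sham and 102 of 360 (28.3%) against CIH, and nothing is read from it, since the member was chosen on such values. In MI against sham, CIH against sham and MI+CIH against MI, 0 of 4 members had groups that did not overlap, beside 5.28%, 2.78% and 0.278% of all tested entries.

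**Figure D1:**
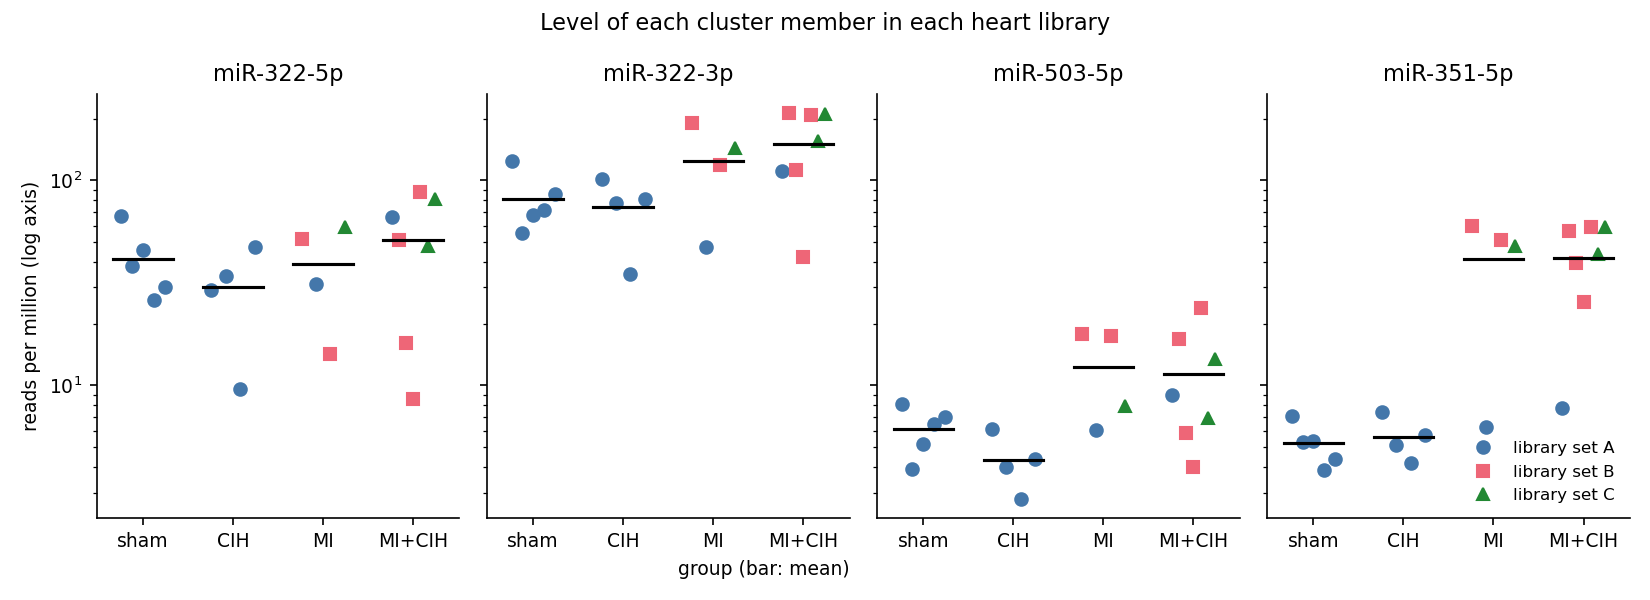
RPM of the 4 members (1 panel each, log axis) in each library, by group, with the mean as a black bar; blue circles, red squares and green triangles are library sets A, B and C. In miR-351-5p all 11 set A libraries lie between 3.86 and 7.77 RPM and all 9 others between 25.6 and 60.05 RPM, while the other 3 members overlap between sets.

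miR-322-5p, the arm with the miR-15/16 seed, showed no such blocks. Sham hearts had 66.65, 38.2, 45.9, 25.96 and 30.03 RPM, and CIH hearts 29.1, 34.3, 9.57 and 47.3 RPM. MI hearts had 51.7, 31.1, 14.2 and 59.4 RPM, and MI+CIH hearts ran from 8.54 RPM (MI+CIH 4) through a median of 51.3 to 87.3 RPM (MI+CIH 5). All 4 groups overlap. The means were 30.1 ± 15.7 RPM in CIH, 39.1 ± 20.5 in MI, 41.4 ± 16.1 in sham and 51.2 ± 30.2 in MI+CIH, and neighbours in this order differed by less than either SD.

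miR-322-3p, the partner arm of the same hairpin, was higher than miR-322-5p in 20 of 20 libraries. Sham hearts had 123, 55.6, 67.6, 71.2 and 85.4 RPM, and CIH hearts 102, 77.8, 34.9 and 81.01 RPM. MI hearts had 190, 47.2, 118 and 143 RPM, with MI 2 again the lowest, and MI+CIH hearts ran from 42.2 through a median of 155 to 213 RPM. In order, the means were 73.9 ± 28.1 RPM in CIH, 80.7 ± 26.2 in sham, 125 ± 59.5 in MI and 150.2 ± 65.4 in MI+CIH. The infarcted groups reached higher values but overlapped both others, and neighbours in this order differed by less than the larger SD of the pair.

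miR-503-5p, which has bases 2 to 7 of the miR-15/16 seed, had the lowest mean of the members. Its values were 8.13, 3.91, 5.18, 6.49 and 7.03 RPM in sham, and 6.15, 4.005, 2.80 and 4.39 RPM in CIH. MI hearts had 17.9, 6.07, 17.4 and 7.88 RPM, and MI+CIH hearts ran from 4.02 through a median of 8.94 to 23.8 RPM. Again the groups overlap. The means were 4.34 ± 1.38 RPM in CIH, 6.15 ± 1.64 in sham, 11.4 ± 7.05 in MI+CIH and 12.3 ± 6.21 in MI, and of the neighbours in this order only CIH and sham differed by more than both their SDs. The lowest MI+CIH value rests on 8 reads (2.04 to 7.93 RPM).

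Fitted differences are given on the scale of log2(RPM + 1), from limma over all 20 libraries, with the standard error (SE). The median of the 360 tested entries was itself 0.94 in MI against sham, -0.21 in CIH against sham, 1.39 in MI+CIH against sham, 0.41 in MI+CIH against MI and 1.51 in MI+CIH against CIH, so each difference is also given relative to that median. In MI against sham miR-351-5p differed by 2.42 (SE 0.61), which is 1.48 above the median. miR-503-5p differed by 0.80 (SE 0.49), miR-322-3p by 0.51 (SE 0.53) and miR-322-5p by -0.19 (SE 0.65), and these lay at -0.14, -0.43 and -1.13 relative to the median. Relative to the other miRNAs, miR-351-5p was thus the only member above the middle in this comparison. Without sham 1 and MI 2 its difference was 3.24 (SE 0.57).

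In MI+CIH against sham the differences were 2.58 (SE 0.54) for miR-351-5p, 0.78 (SE 0.47) for miR-322-3p, 0.63 (SE 0.43) for miR-503-5p and 0.04 (SE 0.57) for miR-322-5p. Relative to the median they were 1.19, -0.62, -0.76 and -1.35. MI+CIH against CIH gave 2.50 (SE 0.57), 0.95 (SE 0.50), 1.06 (SE 0.46) and 0.60 (SE 0.61) in the same order. Relative to its median these were 0.99, -0.56, -0.45 and -0.90. These comparisons share the MI+CIH libraries, and all comparisons against sham share the sham libraries, so their values are not independent.

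No member differed from sham by more than its SE in hearts with hypoxia alone. In CIH against sham the differences were 0.09 (SE 0.61) for miR-351-5p, -0.17 (SE 0.53) for miR-322-3p, -0.43 (SE 0.49) for miR-503-5p and -0.56 (SE 0.65) for miR-322-5p. MI+CIH against MI gave 0.17 (SE 0.57), 0.27 (SE 0.50), -0.17 (SE 0.46) and 0.23 (SE 0.61), also within their SE.

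limma called 204 of 360 entries in MI+CIH against sham (56.7%), 188 higher and 16 lower, and 205 of 360 in MI+CIH against CIH (56.9%), 197 higher and 8 lower, at a Benjamini-Hochberg adjusted p under 0.05. Of the 4 members 1 was among them in each, miR-351-5p, and nothing is read from this. It called 0 entries (0%) in MI against sham, CIH against sham and MI+CIH against MI, with 101, 1 and 17 entries at an unadjusted p under 0.05. In MI against sham edgeR also called 0 and DESeq2 called 39. Scaling that centres the libraries on their typical miRNA changed the balance of calls: with median-of-ratios scaling it was 61 higher and 51 lower against sham and 49 and 48 against CIH, and with TMM scaling 51 and 63, and 37 and 53. Under both scalings miR-351-5p stayed above sham in MI+CIH hearts (1.29 and 1.09), while miR-322-3p (-0.61 and -0.82), miR-503-5p (-0.58 and -0.76) and miR-322-5p (-1.30 and -1.50) lay below it. In MI+CIH the direction of these 3 members against sham thus turns with the scaling. Against CIH it turned too: with TMM scaling miR-322-3p was -0.90, miR-503-5p -0.52 and miR-322-5p -1.17, and miR-351-5p 0.77. For MI against sham, TMM scaling gave -0.61 for miR-322-3p, -0.22 for miR-503-5p, -1.27 for miR-322-5p and 1.38 for miR-351-5p, so that miR-322-3p and miR-503-5p turned.

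With the library set as a term in the fit, the differences of the members from sham lay between -0.18 and 0.45 in MI and MI+CIH, and those in CIH against sham were the same as without it. miR-351-5p was then 0.45 (SE 0.38) above sham in MI and 0.33 (SE 0.38) in MI+CIH, and limma called 0 of 360 entries (0%) in either comparison, in CIH against sham and in MI+CIH against CIH, and 2 (0.556%) in MI+CIH against MI. Those 2 were miR-34b-3p and miR-375-3p, which are not of the locus and are named after their values were seen. Those differences from sham rest on MI 2 and MI+CIH 1, the only infarcted libraries in a set with sham. The sets were found from the values of the tested entries themselves, the members left out. A loss of calls with this term is therefore no independent evidence about the groups.

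**Figure D2:**
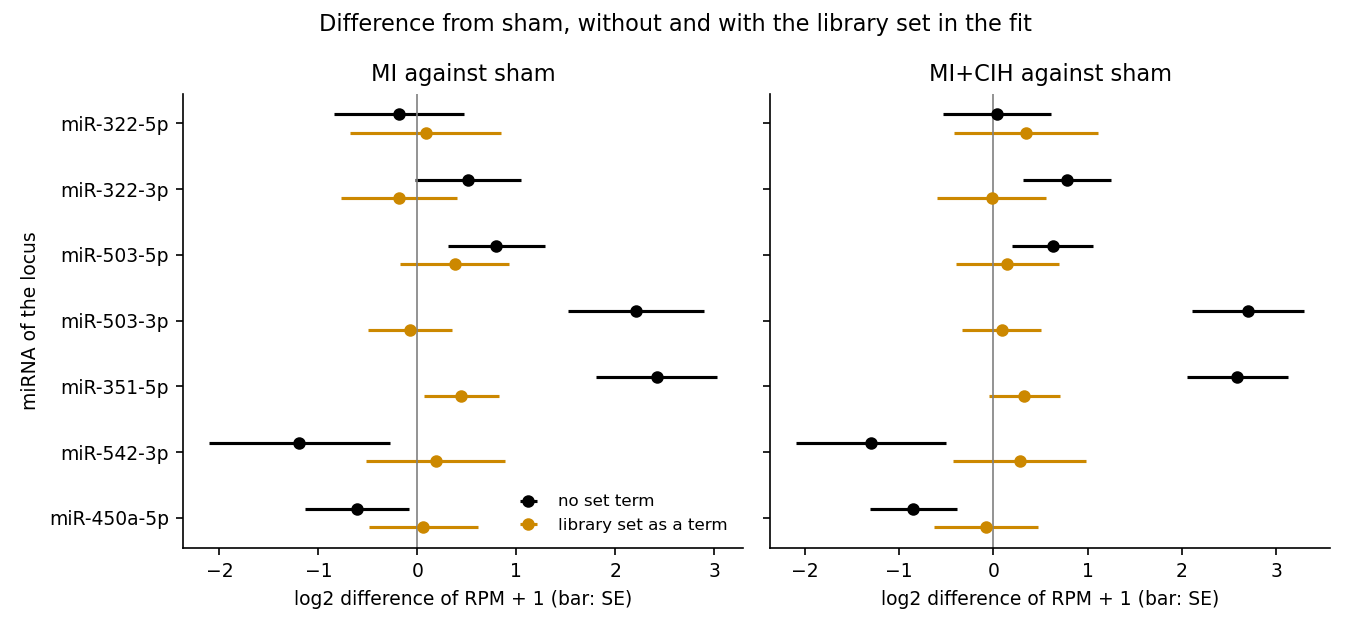
Log2 difference from sham of 7 miRNAs of the locus (points, with the SE as a bar) in MI (left) and MI+CIH (right), without the library set in the fit (black) and with it (orange). miR-503-3p and miR-351-5p lie at 2.21 and 2.42 in MI and 2.70 and 2.58 in MI+CIH, and all 7 lie between -0.18 and 0.45 once the set is a term.

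Inside the sets, MI+CIH hearts could be set beside MI hearts. In set B, miR-351-5p was 60.05 and 51.4 RPM in MI 1 and MI 3 and 56.8, 39.5, 25.6 and 59.1 RPM in MI+CIH 2 to 5. In set C it was 47.7 RPM in MI 4 and 43.8 and 59.3 RPM in MI+CIH 6 and 7, and in set A 6.28 RPM in MI 2 and 7.77 RPM in MI+CIH 1. So 2 of 7 MI+CIH hearts exceeded all MI hearts sharing their set, 3 were below them and 2 between. The count was 5 above and 2 below for miR-322-3p, 3 above, 2 below and 2 between for miR-322-5p, and 3 above and 4 below for miR-503-5p, with no common direction.

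The other arm of the miR-503 hairpin, miR-503-3p, is not a member and was higher in most infarcted hearts. It passed the filter only through the 9 infarcted libraries of sets B and C, where it is high, so a difference from sham and CIH was built into its entry among the tested miRNAs, and its p-values below are no independent evidence. Sham hearts had 1.55, 2.43, 1.95, 0.88 and 1.03 RPM, and CIH hearts 1.54, 1.75, 2.42 and 1.86 RPM. MI hearts 1, 3 and 4 had 10.9, 28.6 and 18.7 RPM and MI 2 had 1.59 RPM. MI+CIH hearts ran from 1.44 RPM (MI+CIH 1) through a median of 17.98 to 39.5 RPM (MI+CIH 3). As in miR-351-5p, all 11 libraries of set A were low (0.88 to 2.43 RPM) and all 9 of sets B and C high (10.9 to 39.5 RPM). Here too the share of all tested entries with such a gap was not counted, and miR-503-3p itself entered the clustering.

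limma put miR-503-3p 2.70 (SE 0.60) above sham in MI+CIH on the log2 scale (adjusted p = 0.0022), 6.49-fold in RPM + 1, and 2.50 (SE 0.64) above CIH (adjusted p = 0.0040). Relative to the median of all tested entries these were 1.31 and 0.99. In MI against sham the difference was 2.21 (SE 0.68) and did not pass (adjusted p = 0.070), and it passed without MI 2 (2.93, adjusted p = 0.0035). In CIH against sham it was 0.20 (SE 0.68, adjusted p = 0.998) and in MI+CIH against MI 0.49 (SE 0.64, adjusted p = 0.895). The difference from sham in MI+CIH passed with both other scalings and with edgeR and DESeq2, at 1.39 to 2.09. These fits kept the same filter, so their calls are no independent evidence either. That from CIH was lost with median-of-ratios scaling (1.12, adjusted p = 0.11), TMM scaling (0.95, adjusted p = 0.15) and edgeR (1.37, adjusted p = 0.097). With the library set as a term they were 0.09 (adjusted p = 0.95) and -0.11 (adjusted p = 0.91).

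miR-542-3p, cut from the hairpin after Mir351, was lower in set B than elsewhere. Sham hearts had 116, 51.7, 55.5, 43.5 and 68.99 RPM, and CIH hearts 72.5, 51.7, 14.4 and 53.8 RPM. MI hearts had 18.4, 54.7, 7.38 and 67.4 RPM, and MI+CIH hearts ran from 3.52 through a median of 20.9 to 146 RPM. The 6 libraries of set B lay between 3.52 and 20.9 RPM and the 3 of set C between 67.4 and 146 RPM. In set A only CIH 3 (14.4 RPM) reached down into the range of set B. In MI+CIH against sham the difference of -1.30 (SE 0.80) did not pass (adjusted p = 0.16), nor did that of -1.19 (SE 0.91) in MI (adjusted p = 0.32). The first was -2.74 and passed with TMM scaling (adjusted p = 0.045) and was 0.28 with the library set as a term.

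miR-450a-5p, from the far end of the run, had 147, 127, 114, 111 and 123 RPM in sham and 174, 129, 51.6 and 131 RPM in CIH. MI hearts had 109, 125, 66.4 and 47.3 RPM, and MI+CIH hearts ran from 24.6 through a median of 58.0 to 135 RPM. The means were 124 ± 14.3 RPM in sham, 121 ± 51.1 in CIH, 86.8 ± 36.1 in MI and 79.98 ± 44.9 in MI+CIH. The difference of MI+CIH from sham, -0.85 (SE 0.46), did not pass (adjusted p = 0.11), nor did that from CIH, -0.69 (SE 0.49, adjusted p = 0.22). With scaling on the typical miRNA both passed: with TMM scaling they were -2.44 (adjusted p = 0.0050) and -2.53 (adjusted p = 0.0064), and with the library set as a term -0.08 and 0.07, with no call.

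Set differences along the locus are a description, since the sets were found from the same libraries and these 3 arms entered the clustering. Set B minus set A was, from the first hairpin to the last, -0.30 for miR-322-5p, 0.81 for miR-322-3p, 1.02 for miR-503-5p, 3.03 for miR-503-3p, 2.87 for miR-351-5p, -2.45 for miR-542-3p and -0.66 for miR-450a-5p. Set C minus set A was 0.80, 1.18, 0.63, 2.97, 2.96, 0.66 and -1.28 in that order. The miRNAs of the run therefore did not move as a block: miR-503-3p and miR-351-5p were high in both sets, miR-542-3p was low in set B only, and miR-450a-5p was lower in both.

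**Figure D3:**
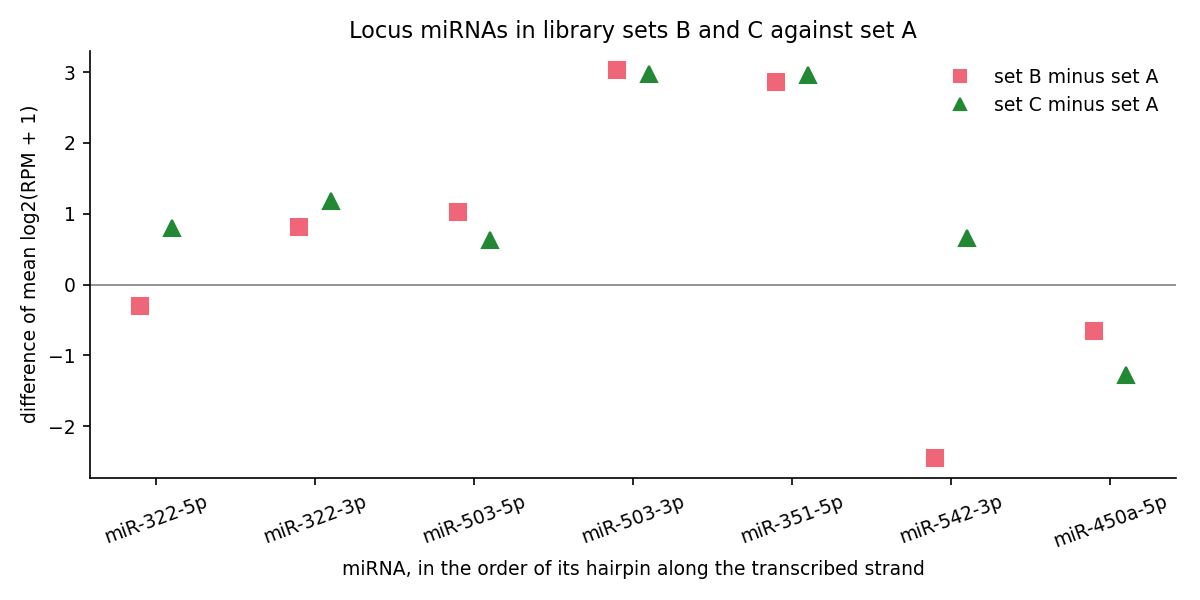
Difference in mean log2(RPM + 1) of set B (red squares) and set C (green triangles) from set A, for 7 miRNAs in the order of their hairpins. miR-503-3p and miR-351-5p lie between 2.87 and 3.03 in both, and miR-542-3p lies at -2.45 in set B and 0.66 in set C.

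The ratio of 2 locus miRNAs within a library does not depend on scaling. miR-351-5p over miR-322-5p was 0.107 to 0.434 in set A and 0.677 to 3.63 in sets B and C, which do not overlap. miR-351-5p over miR-322-3p was 0.051 to 0.133 in set A and 0.266 to 0.607 in the others. miR-542-3p over miR-322-3p was 0.413 to 1.16 in set A, 0.457 to 0.693 in set C and 0.035 to 0.10 in set B. miR-450a-5p over miR-322-3p was 1.09 to 2.65 in set A, 0.515 to 0.651 for set B and 0.238 to 0.33 in set C, 3 ranges that do not overlap. Other ratios did not part all sets: miR-503-5p over miR-322-5p was 0.133 to 0.166 in set C, inside the 0.093 to 0.293 of set A, and 0.272 to 1.23 in set B, which overlaps set A. miR-542-3p over miR-322-5p was 0.239 to 0.521 in set B and lay between 1.13 and 2.50 in sets A and C, which overlap. The sets were found from these libraries, with miR-542-3p and miR-450a-5p in the clustering. Ratios of other miRNA pairs were not examined, so no gap between sets is read as particular to the locus.

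The remaining 6 arms stayed below the filter and have no test. miR-351-3p, the partner arm of miR-351-5p, had 0 to 5 reads in set A libraries (0 to 0.456 RPM), 4 to 33 in set B (2.01 to 10.7 RPM) and 3 to 13 in set C (0.227 to 0.821 RPM). It was at 0 in sham 2, sham 3, sham 4 and CIH 3, where a count of 0 allows up to 0.405, 0.293, 0.526 and 0.290 RPM. miR-450b-5p, like miR-542-3p, was lowest in set B, with 0 to 1.22 RPM beside 1.35 to 6.94 (set A) and 4.54 to 7.23 (set C). It was at 0 in MI 3 and MI+CIH 4, where a count of 0 allows up to 0.886 and 1.51 RPM. In MI+CIH 3 it had 2 reads (Wilson interval 0.267 to 3.55 RPM). In MI+CIH 3 and MI+CIH 4 the low end of set A thus lies within counting error. Its partner miR-450b-3p was highest in set B, with 1.95 to 3.84 RPM beside 0.183 to 0.966 (set A) and 0.493 to 1.49 (set C). The lowest of these set B values rests on 4 reads in MI+CIH 3 (0.758 to 5.01 RPM). miR-542-5p did not exceed 2.63 RPM, and miR-450a-1-3p and miR-450a-2-3p had at most 12 and 3 reads in any library.

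Arm use was described as the share of the 5p arm among the reads of both arms. For miR-322 the 3p arm held the majority in 20 of 20 libraries, and the 5p share averaged 33.8% ± 7.15 in sham (SD, n = 5), 27.8% ± 7.32 in CIH (n = 4), 25.3% ± 12.3 in MI (n = 4) and 23.9% ± 8.51 in MI+CIH (n = 7). The groups overlap. It ran from 10.7% in MI 3 (Wilson interval 8.2% to 13.9%) to 40.7% in sham 2 (37.1% to 44.4%), and reached 29.6% in set B and 29.3% in set C at most, while set A began at 21.5%.

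For miR-503 the majority arm was not the same in all libraries. The 5p arm held the majority in 11 of 11 libraries of set A, 3 of 6 of set B and 0 of 3 of set C, and its share averaged 75.7% ± 11.2 (n = 11), 39.9% ± 21.8 (n = 6) and 32.1% ± 9.75 (n = 3). By group it was 78.7% ± 11.4 in sham, 68.4% ± 10.9 in CIH, 52.2% ± 22.7 in MI and 41.7% ± 26.6 in MI+CIH. MI 2 (79.3%) and MI+CIH 1 (86.1%) lay within the sham range of 61.7% to 88.1%. The lowest share, 12.9% in MI+CIH 3, rests on 12 of 93 reads (Wilson interval 7.5% to 21.2%). An even split lies inside the intervals of CIH 3 (53.7%, 40.6% to 66.3%), sham 2 (61.7%, 47.4% to 74.2%) and MI+CIH 2 (54.5%, 47.6% to 61.2%).

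**Figure D4:**
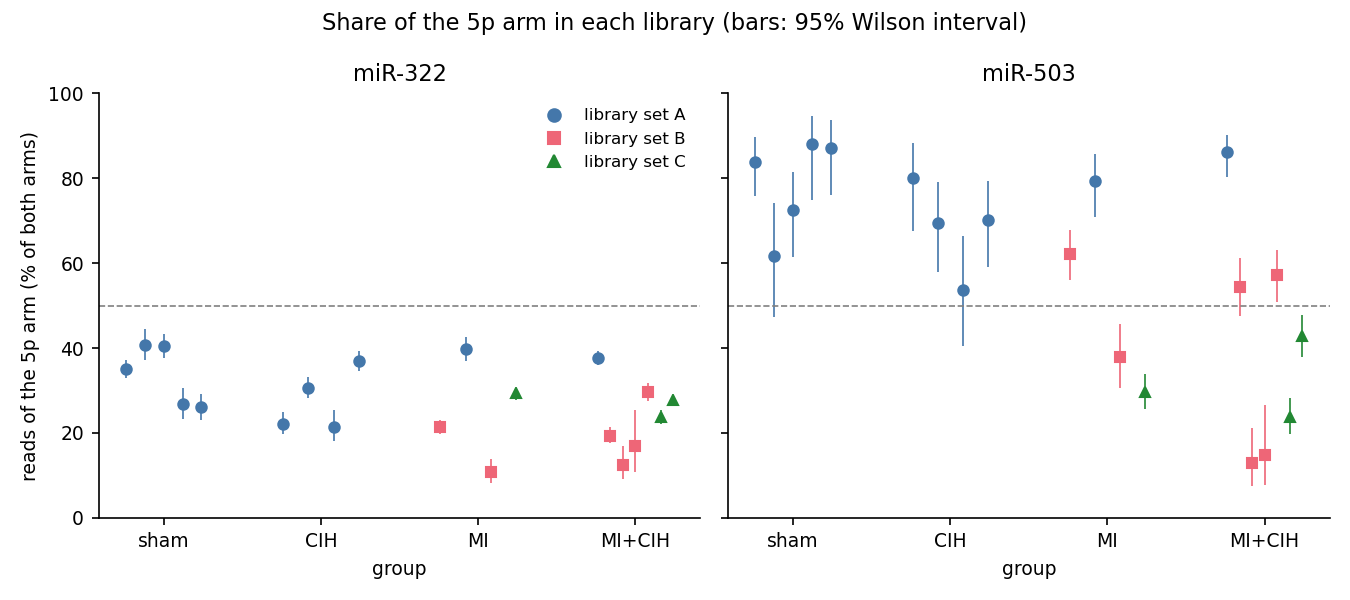
Share of the 5p arm among reads of both arms (percent, with the 95% Wilson interval as a bar) for miR-322 (left) and miR-503 (right) in each library by group, coloured by library set, with a dashed line at an even split. All miR-322 points lie below the line at 10.7% to 40.7%, and for miR-503 all 11 set A libraries lie above it and all 3 of set C below it.

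Libraries of set B divided further into MI 1, MI+CIH 2 and MI+CIH 5, with 5885190 to 9175110 reads, and MI 3, MI+CIH 3 and MI+CIH 4, with 1991323 to 3387231 reads. miR-322-5p averaged 63.4 ± 20.7 RPM in the deeper 3 and 12.9 ± 3.92 in the shallower 3, miR-322-3p 204 ± 12.4 and 90.96 ± 42.3, miR-351-5p 58.6 ± 1.70 and 38.8 ± 12.9, and miR-503-5p 19.5 ± 3.75 and 9.09 ± 7.27 RPM. miR-542-3p averaged 18.1 ± 2.97 and 4.93 ± 2.13 RPM. miR-503-3p went the other way, with 14.3 ± 3.48 and 30.4 ± 8.33 RPM. These libraries were divided after their values were seen, so no test is given, and the part of depth in these values was not tested.

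Whether the arms vary together was examined in set A, the largest set, over 11 libraries and 21 pairs of 7 arms. Among the 15 pairs without miR-503-3p, Pearson's r was 0.52 to 0.90 and Spearman's rho 0.11 to 0.81. Of these, 9 passed for r and 4 for rho after Benjamini-Hochberg adjustment (permutation test with 100000 permutations, two-sided). Pairs of miRNAs outside the locus were not tested in this way, so the counts are not read as particular to the locus. miR-322-3p and miR-542-3p had r = 0.88 (adjusted permutation p = 0.0027) and rho = 0.81 (adjusted permutation p = 0.036), and r stayed at 0.88 without the 2 libraries farthest from the median. miR-322-5p and miR-542-3p had r = 0.90 (adjusted permutation p = 0.012) and rho = 0.59 (adjusted permutation p = 0.16), with r = 0.54 without CIH 3 and sham 1. The 15 values of r ran from 0.03 to 0.79 without CIH 3, a library at or near the lowest level of set A in all 6 of these arms, and from -0.21 to 0.88 without the 2 farthest libraries of each pair, so several rest on those libraries.

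miR-503-3p stood apart from the arm it shares a hairpin with. In set A, miR-503-5p and miR-503-3p had r = -0.73 (adjusted permutation p = 0.026) and rho = -0.85 (adjusted permutation p = 0.036), and r was -0.50 without CIH 3 and sham 2. In these libraries miR-503-3p rests on only 5 reads (sham 4) to 26 reads (MI+CIH 1), so its counting error is large. Over all 6 pairs with miR-503-3p, r was -0.73 to 0.09, and only this pair passed. After the mean of each set was subtracted, r over the 20 libraries was 0.75 to 0.91 for the 15 pairs of the other arms and -0.33 to -0.62 for the 6 pairs with miR-503-3p, given as a description. On the log2 scale the shallower libraries of set B differed from the deeper ones by -2.21 to -0.64 in the other arms and 1.03 in miR-503-3p. CIH 3 differed from the rest of set A by -2.07 to -0.38 and by 0.41. The part of these libraries in both ranges of r was not tested.

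The miRNAs outside the locus with the pattern most like each member were ranked by Pearson's r of log2(RPM + 1) over the 20 libraries after the mean of each set was subtracted. For miR-322-5p the 5 closest were let-7i-3p (0.95), miR-101b-3p (0.94), miR-210-3p (0.93), miR-345-5p (0.91) and miR-350-3p (0.91), and for miR-322-3p miR-181c-3p (0.89), miR-3068-5p (0.89), miR-379-3p (0.89), miR-27b-3p (0.88) and miR-125b-2-3p (0.88). For miR-351-5p they were miR-181c-3p (0.87), miR-700-3p (0.86), miR-340-5p (0.86), miR-3068-5p (0.83) and miR-24-2-5p (0.82), and for miR-503-5p miR-340-5p (0.85), miR-101b-3p (0.84), miR-27a-3p (0.83), miR-431-5p (0.82) and miR-101a-3p (0.81). Such values share library and depth and are descriptions. With the set means kept in, the closest to miR-351-5p were let-7i-5p, miR-541-5p, miR-98-5p, let-7g-5p and miR-674-5p, and no r is given for them because the libraries fall into separate sets.

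Of the miRNAs sharing a member's seed, 7 were tested. Both with the miR-125 seed rose in MI+CIH hearts, where 188 of all 360 entries rose against sham and 197 against CIH, so nothing particular to them is read from that count. miR-125a-5p, 1 of the 2 tested relatives of miR-351-5p, had 93.9 to 130.3 RPM in sham, 76.4 to 130.3 in CIH, 156 to 2411 in MI and 146 to 4617 in MI+CIH, where MI 2 and MI+CIH 1 were again the lowest of their groups. It rose in MI+CIH against sham by 3.28 (SE 0.75, limma adjusted p = 0.0026) and against CIH by 3.39 (SE 0.80, adjusted p = 0.0027). miR-125b-5p, made from Mir125b-1 and Mir125b-2, rose by 2.67 in both (SE 0.65, adjusted p = 0.0031 and SE 0.70, adjusted p = 0.0045), from 731 ± 110 RPM in sham to 6842 ± 5801 in MI+CIH. Both also passed against sham with median-of-ratios scaling (1.88 and 1.27) and TMM scaling (1.67 and 1.05), and neither with the library set as a term (0.45 and 0.11). Against CIH miR-125b-5p was lost with TMM scaling (0.79, adjusted p = 0.14).

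In MI+CIH against sham 2 of 5 rose and 0 fell, with a median of 0.47 beside 1.39 for all tested entries, of which 56.7% were called. miR-497a-5p rose by 2.46 (SE 0.58, limma adjusted p = 0.0028), from 7.26 ± 3.91 to 51.8 ± 34.8 RPM, and miR-15b-5p by 1.59 (SE 0.65, adjusted p = 0.042), from 30.5 ± 21.3 to 113 ± 98.0 RPM. The call of miR-15b-5p was lost with median-of-ratios scaling (0.22) and TMM scaling (0.0030) and without sham 1 and MI 2 (1.51, adjusted p = 0.054), and that of miR-497a-5p with TMM scaling (0.96, adjusted p = 0.092). miR-16-5p (0.47, SE 0.41), miR-195a-5p (0.39, SE 0.59) and miR-15a-5p (-0.14, SE 0.48) did not pass, and with TMM scaling miR-16-5p fell by 1.15 (adjusted p = 0.048) and miR-15a-5p by 1.51 (adjusted p = 0.039). Against CIH 3 of 5 rose, miR-497a-5p (2.87), miR-15b-5p (2.17) and miR-16-5p (1.14, adjusted p = 0.033), the last of which was -0.73 with TMM scaling. Of all tested entries 56.9% were called against CIH, and both counts lie near these shares. In MI against sham and CIH against sham 0 of the 7 relatives passed, and with the library set as a term 0 of 7 passed in any comparison.

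Base composition moved with the difference between sets. Of 360 tested entries 306 matched a RefSeq mature sequence, and over these the share of G and C bases had a Spearman's rho of 0.51 with the difference of set B from set A and -0.05 with that of set C from set A, across miRNAs, which are not replicates. miR-351-5p has 62.5% G and C, and other miRNAs within 5 percentage points of it (50) had a median of 2.87 in set B minus set A, the same as its own 2.87, and 0.64 in set C minus set A, where its own value was 2.96. miR-503-3p, with a G and C share of 50%, had 3.03 beside a median of 1.92 and 2.97 beside 0.83. miR-542-3p (31.8%) had -2.45 beside 0.45 in set B and 0.66 beside 0.69 in set C. miR-322-5p (40.9%) lay below its like in set B, -0.30 beside 1.12. The part of base composition in these differences was not tested.

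**Figure D5:**
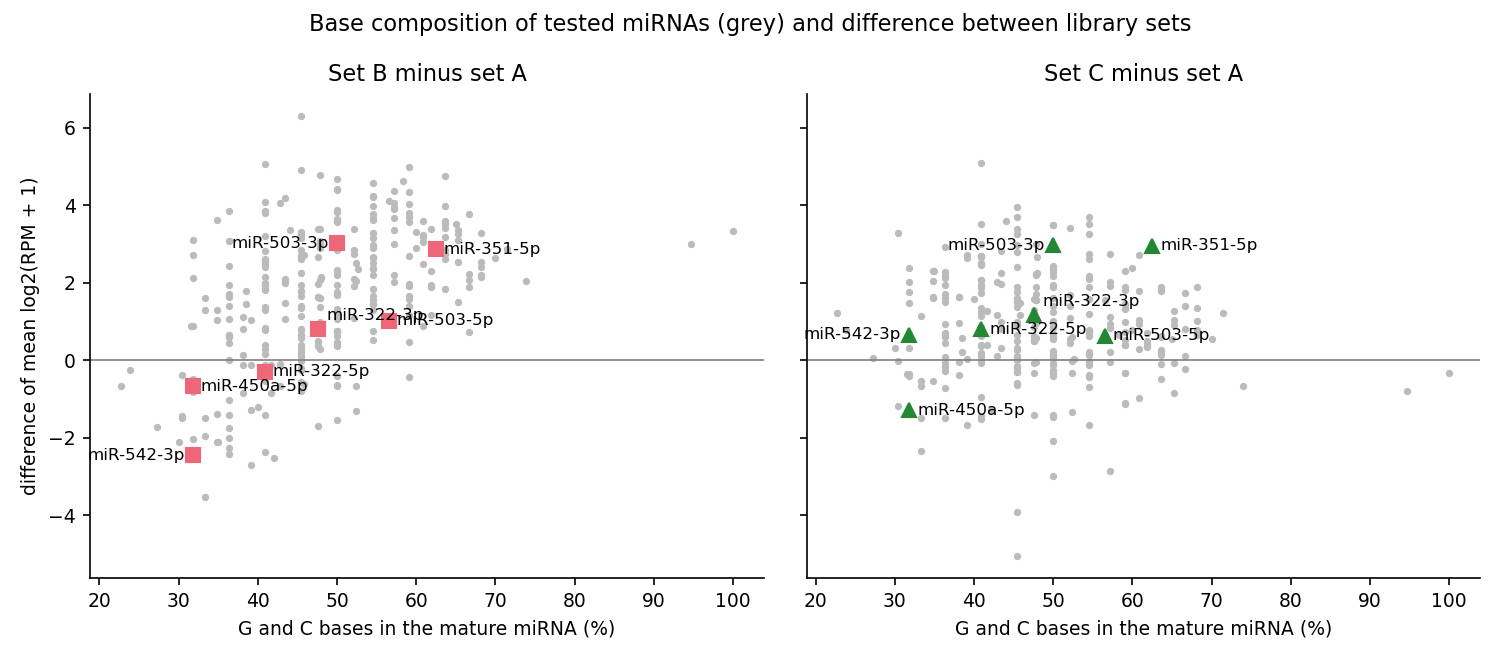
Percent of G and C bases in the mature sequence against the difference in mean log2(RPM + 1) of set B (left) and set C (right) from set A; grey points are the other tested miRNAs, coloured points the 7 of the locus. In set B the grey points climb with G and C content (rho 0.51) and miR-351-5p at 62.5% lies among them at 2.87, whereas in set C they do not (rho -0.05) and it lies at 2.96.

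Markers of other cell types also moved with the sets that set miR-351-5p apart, and every marker of the 9 lists had reads in at least 1 library. The 5 fibroblast miRNAs (miR-199a, miR-199b and miR-214 arms) summed to 404 to 1932 RPM in sham, 191 to 438 in CIH, 382 to 4118 in MI and 1278 to 7192 in MI+CIH. By set the sums were 191 to 1932 RPM (A), 1278 to 5795 (B) and 4118 to 7192 (C). The 5 leukocyte miRNAs summed to 281 to 652 RPM in sham, 248 to 505 in CIH, 207 to 1599 in MI and 361 to 1930 in MI+CIH. Their sum was higher in set B (1209 to 1930) than in sets A (207 to 652) and C (up to 639.9), but they did not move together. On the log2(RPM + 1) scale, set B minus set A was 3.62 for miR-155-5p and 1.95 for miR-223-3p. It was -2.11 for miR-142a-3p and -1.48 for miR-142a-5p. The most abundant of them, miR-150-5p (mean 411 RPM), has no such value here. Erythroid miRNAs (4) summed to 5081 to 15227 RPM in set B, above both set A (579 to 3984) and set C (2413 to 3076). They did not rise as a list: set B minus set A was 0.60 for miR-451a, -2.12 for miR-144-3p and -1.44 for miR-144-5p. miR-486a-5p, which reached 10305 RPM, has no such value here. The endothelial pair reached 24768 to 50262 RPM in set C beside 5976 to 10970 in set A, and was 3162 to 7513 in set B. That sum is mostly miR-126a-3p (mean 11594 RPM), for which set C minus set A was 2.42 and set B minus set A -0.57. miR-126a-5p (mean 989 RPM) has no such value here, so the sum does not show its direction. The smooth muscle pair summed to 25883 to 41639 RPM in set C, below the 134524 to 261394 of set A and the 130564 to 272741 of set B. Nearly all of this is miR-143-3p (mean 176169 RPM), so the sum does not show the direction of miR-145a-5p (mean 1846 RPM). The heart muscle list (5) summed to 88429 to 184647 RPM in set B, 183397 to 317715 in set A and 241475 to 295423 in set C. This sum is mostly miR-1a-3p (mean 219585 RPM), which has no such value here, nor has miR-133a-3p (mean 7305 RPM). Set B minus set A was -2.41 for miR-208a-3p, -0.48 for miR-208b-3p and -1.96 for miR-499-5p. Set C minus set A was 0.09, 0.32 and -1.50 in that order. The epithelial list (6) was 74.8 to 207.6 RPM (A), 111.6 to 1019 (B) and 207.8 to 707 (C). Skeletal muscle miR-206-3p was at most 4.74 RPM in set A, beside 2.29 to 437 (B) and 0.882 to 33.7 (C), and liver miR-122-5p 0.138 to 7.01, 2.18 to 22.8 and 2.55 to 4.63 RPM in the order of the sets. The part of cell content in the levels of the members was not tested.

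The neighbouring X-linked miRNA cluster that ends in Mir363, 305430 bases from Mir450b, gave few reads. Of 10 arms listed 8 were in the table, 2 of those had no read in any library, and 1, miR-363-3p, passed the filter. miR-363-3p had a median of 4.65 RPM and a highest value of 47.3 RPM, and miR-20b-5p a median of 0.351 and a highest value of 7.30 RPM.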

How the data were processed

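Small RNA libraries were made from heart total RNA with a NEBNext kit, per the labels' protocols. The submitters' processing notes name Bowtie, DESeq 1.8.3 and mm10, with no role for each. The authors deposited RPM values, a miRNA's reads per 1000000 assigned reads of its library, under a header that calls them TPM. No length entered them: each library sums to 1000000, and 100% of values are whole multiples of 1 read (tolerance 0.05 reads), which gave back the reads. Design and units were planned for TPM, and the same test was used.

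limma 3.58.1 (R 4.3.3, two-sided, with a trend) was fitted to log2(RPM + 1) over all 20 libraries, with 1 mean per group, for the 360 entries that reached 5 RPM in 4 or more libraries. p-values were adjusted by Benjamini-Hochberg over the 360 in each of 5 comparisons, with a threshold of 0.05, and adjusted p without another tool named are limma's. edgeR 4.0.16 and DESeq2 1.42.0 on the recovered reads, other scalings, pseudocounts and filters, a replicate block, a term for the library set and leaving out libraries were alternatives. The fit was checked on simulated data. Wilson intervals (95%) and floors of 3 reads cover counting error only.

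The members, lists and rules were chosen with earlier results of these data known. The rule named the members, the other arms of the locus, the seed relatives and the 5 miRNAs most like each member. Sequences are from RefSeq (GRCm38.p6).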

Additional observations from a re-analysis of the deposited data

How the results depend on the processing

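In MI against sham, where limma called 0 miRNAs, it called 14 with a mean of at least 50 RPM required, 114 without sham 1 and MI 2, 153 without MI 2 and MI+CIH 1 (chosen after seeing the data), and DESeq2 called 39. Leaving out 1 library at a time gave 0 to 113 calls, the highest without MI 2, and 31 without MI+CIH 1. In CIH against sham DESeq2 called 1 (miR-363-3p). In MI+CIH against sham the count of 204 became 135 with no filter, 92 at a mean of at least 50 RPM, 112 with median-of-ratios scaling, 114 with TMM scaling, 0 with the library set as a term and 85 with edgeR. In MI+CIH against MI it was 2 with the set term and 0 to 3 without 1 library (miR-34b-3p, miR-34c-3p and miR-375-3p without MI+CIH 1, miR-206-3p without MI 3). In MI+CIH against CIH the count of 205 became 94 at a mean of at least 50 RPM, 97 with median-of-ratios scaling, 90 with TMM scaling, 0 with the set term, 75 with edgeR and 133 with DESeq2. The cause was not tested, except that the stricter filter tests fewer miRNAs.

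Of the members, miR-322-3p, miR-503-5p and miR-322-5p changed sign with the scaling, as given above, and in MI+CIH against MI miR-351-5p lay between -0.55 and 0.18 over the alternatives other than leaving out 1 library. The sign of some other arms of the locus turned as well. With the set term miR-503-3p was -0.075 for MI against sham and -0.11 for MI+CIH against CIH, miR-542-3p was 0.19, 0.28, 0.094 and 0.87 in MI and MI+CIH against sham and MI+CIH against MI and CIH, and miR-450a-5p was 0.061 for MI against sham and 0.072 for MI+CIH against CIH. In MI+CIH against MI, where neither arm passed, miR-503-3p was -0.23 without sham 1 and MI 2 and -0.23 to 0.95 without 1 library. In the same comparison miR-542-3p was 0.0023 with a pseudocount of 5 RPM, 0.23 without sham 1 and MI 2, 0.016 with edgeR, 0.0079 with DESeq2 and -0.68 to 0.33 without 1 library, and miR-450a-5p was -0.49 to 0.0010 without 1 library. In CIH against sham miR-450a-5p was 0.12 with median-of-ratios scaling, 0.094 with TMM scaling, 0.18 with edgeR, 0.21 with DESeq2 and -0.37 to 0.21 without 1 library. The cause was not tested.

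With the replicate number as a block the calls were 0, 0, 218, 0 and 211 in the order above. The labels do not say that a number pairs libraries, and of 25 pairs with the same number 10 had deviations that correlated above 0.1 (range -0.711 to 0.867). The fewest reads behind a member's value were 8 for miR-503-5p, 17 for miR-322-5p, 22 for miR-351-5p and 84 for miR-322-3p, so counting error limits miR-503-5p most.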
